A study of Macaca fascicularis with 10 samples.

Results

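This account covers the genes of the extracellular matrix, of the integrins that bind it and of the metalloproteases that cut it, in the dorsal raphe nucleus, a serotonin cell group of the brainstem. Members were taken by symbol, as every row of the deposited table named as a collagen, laminin alpha, beta or gamma chain, ADAM or ADAMTS protease, integrin subunit, matrix metalloprotease (MMP), TIMP inhibitor, fibrillin, fibulin, latent TGF-beta binding protein (LTBP), or as FN1, HSPG2, VCAN, TNC, TNR or a thrombospondin. The pattern took in 86 of 7229 genes. It found no row for a TIMP, a thrombospondin, HSPG2, VCAN or TNR. It also took in 2 genes outside these families: ITGB1BP1, a cytosolic protein that binds an integrin tail, and ITGBL1, an integrin beta-like secreted protein.

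The animals were 10 female cynomolgus macaques (the species Macaca fascicularis). The labels name both parents of each animal, and no treatment. All 10 form 1 group and are numbered 1 to 10 in the order of the labels. Reads that tell the parental alleles apart, called allelic reads here, were counted per gene, with 1 column for each parental allele of an animal. The measure used throughout is the paternal share, the percent of allelic reads of a gene that stand in the column labelled paternal, given where a gene had 10 or more allelic reads in a daughter. Daughters 1, 7 and 8 share a father, daughters 4 and 5 share another, and daughters 6 and 10 share a mother.

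The extracellular matrix is the protein mesh outside cells. In brain, a basement membrane of collagen IV and laminin wraps the vessels and the brain surface, while fibronectin and tenascin-C belong to the looser matrix. Integrins are paired alpha and beta receptors that tie this mesh to the cytoskeleton. ADAM, ADAMTS and MMP enzymes use zinc to cut matrix or shed membrane proteins. Most autosomal genes are transcribed from both parental copies. The paternal share shows how evenly that happens in 1 animal, and says nothing of the level of a gene. In bulk tissue, cells that read both copies evenly and a mixture of cells that read 1 copy each cannot be told apart. The number of allelic reads follows the number of differing positions as well as expression, so read numbers are not compared between genes as levels.

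The daughters differed in depth, from 30090 allelic reads in daughter 1, the shallowest by far, to 999471. The members held from 210 reads in daughter 1 to 7014 in daughter 5, which was 0.651% ± 0.0745 of allelic reads (SD, n = 10). Between 10 and 54 members could be measured per daughter. Of the 5 serotonin neuron markers, 4 were in the table, as were 4 of 5 endothelial markers, while the 4 astrocyte, 4 oligodendrocyte and 4 microglia markers had no row and were not analysed here. The column labels were checked on DLK1, MEST and GRB10, imprinted genes known to be read from the paternal copy in brain. Their pooled reads were 95.3% to 98.1% paternal in daughters 3, 4, 5 and 10. In daughters 2, 6 and 9 the share was 5.08%, 2.78% and 9.16%, which goes against the labels, and in daughters 2 and 9 this rests on GRB10. Daughters 1, 7 and 8 had too few reads to tell. Sides are therefore given as the columns are labelled.

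Of the 86 members, 70 had 10 or more reads in at least 1 daughter, which gave 361 measurements of a gene in a daughter, and 42 had them in 5 or more daughters. The other 16 had between 1 and 21 reads over all daughters. They are ADAM5, ADAM7, ADAM12, ADAM32, ADAMTS5, ADAMTS7, ADAMTS14, ADAMTS15, ADAMTS20, COL13A1, COL28A1, ITGAL, ITGB3, ITGBL1, MMP14 and MMP21.

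As a family the genes were read about evenly from both alleles. The median paternal share of the members in a daughter lay between 45.9% and 55.4%, and the share of their pooled reads was 50.2% ± 2.28 (SD, n = 10). None passed the test for a difference between the parental columns across daughters. In edgeR's quasi-likelihood test with the daughter as block, 0 of 42 members passed a Benjamini-Hochberg adjusted p of 0.05, against 0% of the 2981 genes tested. The fitted difference pointed to the paternal column in 23 members and to the maternal column in 19. At an unadjusted p under 0.05 there was 1 of 42 members with edgeR, against 3.12% of all genes, and 0 with DESeq2. A gene whose unequal reading changes sides between animals cannot be called by this test. It also relies on the column labels, which are in doubt in daughters 2, 6 and 9 and could not be checked in daughters 1, 7 and 8. As it called no gene of the table, the lack of a call among the members does not show that they are read evenly.

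**Figure D1:**
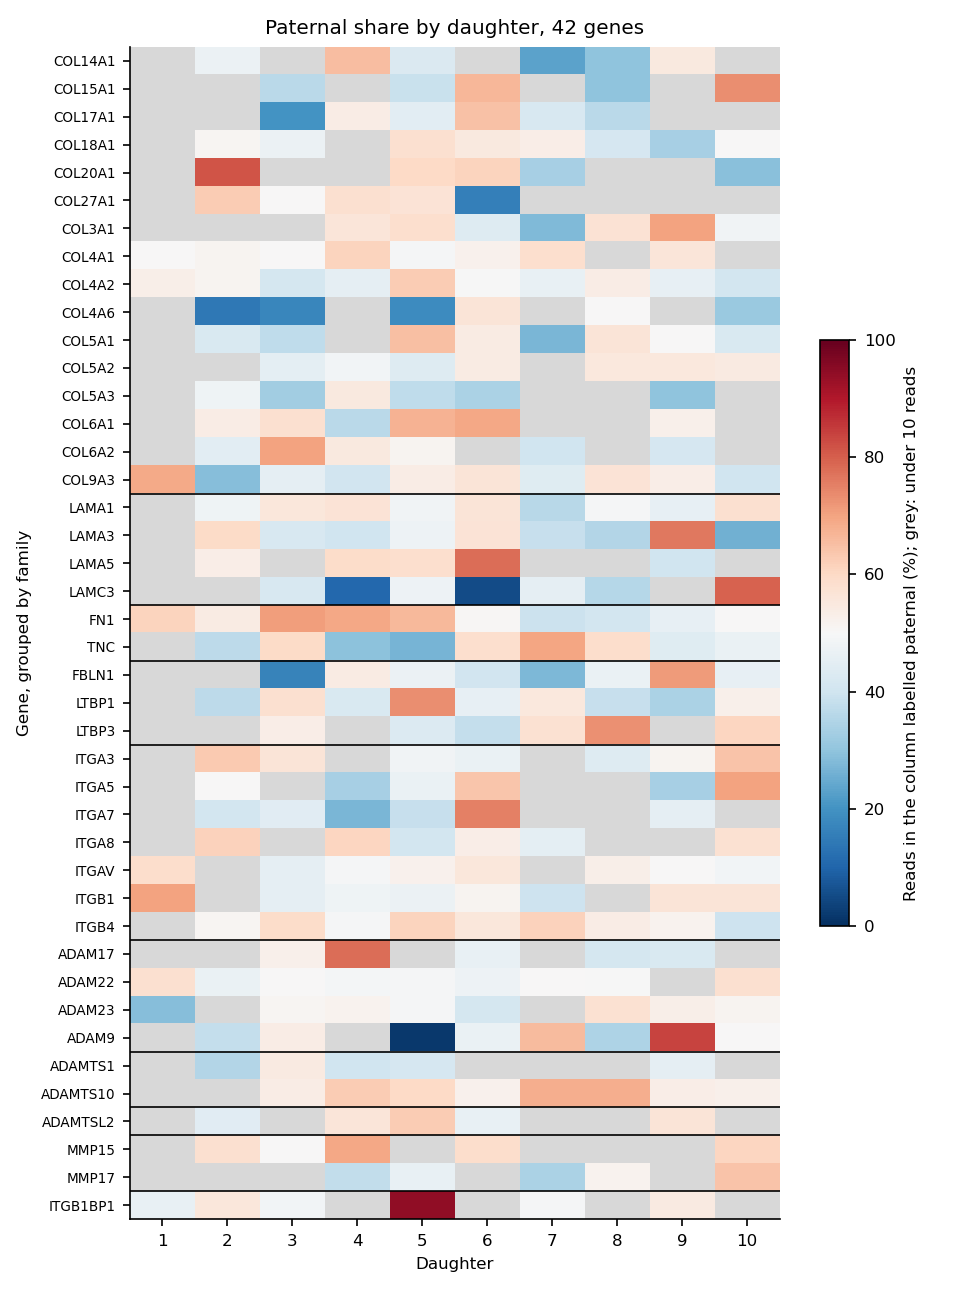
Paternal share (colour, percent of allelic reads in the column labelled paternal) of the 42 genes measured in 5 or more of the 10 daughters, 1 row per gene and 1 column per daughter, with black lines between gene families and grey where there were under 10 reads. Most cells are pale, near 50%. ITGB1BP1 has 1 dark cell, in daughter 5 (94.5%), while ADAM9 is dark in opposite colours in daughters 5 (1.79%) and 9 (83.6%), and rows such as TNC hold both colours. The column labels of daughter 9 go against the imprinted genes.

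Single daughters did depart from equal alleles. The 95% Wilson interval, which covers the error of counting and treats reads as independent molecules, though they need not be, left out 50% in 77 of the 361 measurements, or 21.3%, close to the 20.1% of the 27887 measurements of all genes. Of these 77, 41 lay on the paternal side and 36 on the maternal. They came from 41 genes. The share of such measurements grew with reads, in the members and in all genes. It was 9.57% of 94 member measurements with 10 to under 20 reads (background 11.6%), 19.5% of 118 with 20 to under 50 (background 16%), 24.5% of 102 with 50 to under 200 (background 21.8%) and 42.6% of 47 with 200 or more (background 33.7%). The 47 come from 16 genes and are not independent of each other. Between 40% and 60% lay 227 of the 361 measurements, or 62.9%, against 69.8% of all.

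**Figure D2:**
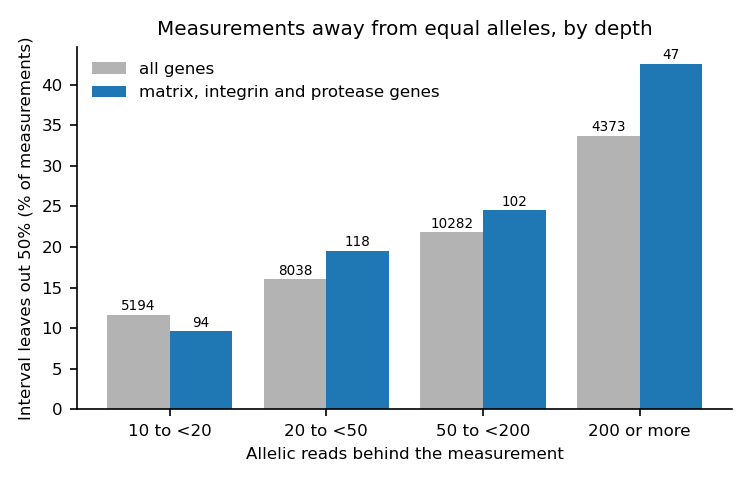
Share of measurements whose 95% Wilson interval leaves out 50% (y axis, percent) by the number of allelic reads behind them (x axis), for all genes in grey and the members in blue, with the number of measurements above each bar. In both, the share is lowest at 10 to under 20 reads (11.6% and 9.57%) and highest at 200 or more (33.7% and 42.6%).

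The side often changed between daughters. Of 19 members with 2 or more such measurements, 13 had them on both sides, or 68.4%, against 64.3% of the 1431 genes of the table with 2 or more. Sides are as labelled, and some of these changes may rest on daughters 2, 6 and 9, whose labels are in doubt. Others may rest on daughters 1, 7 and 8, whose labels could not be checked. The same limits hold for the sides of all these daughters given below. FN1 and TNC, the 2 members grouped here as glycoproteins and proteoglycans, each had 4 such measurements on the paternal and 2 on the maternal side and are described first.

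FN1 encodes fibronectin, a soluble and fibrillar glycoprotein that integrins bind. Its paternal share was high in daughters 3, 4 and 5, with 70.7% of 82 reads (95% interval 60.1 to 79.5), 69.5% of 640 (65.9 to 73.0) and 66.1% of 1142 (63.3 to 68.8). It was low in daughters 7 and 8, with 39.2% of 441 (34.8 to 43.9) and 40.7% of 150 (33.1 to 48.7). In between lay daughter 2 with 54.2% of 651, daughter 6 with 50.4% of 351, daughter 9 with 45.9% of 377, daughter 10 with 50.3% of 191 and daughter 1 with 61.3% of 31. The intervals of daughters 3, 4 and 5 lie wholly above those of daughters 7 and 8. The SD between daughters was 11.6 points, 2.80 times what read counting alone would give. The mean was 54.8%, and the paternal against maternal difference was log2 0.26 ± 0.20 (SE), with an adjusted p of 1 by edgeR.

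FN1 also had the smallest p of all members in the comparison of title prefixes, the first part of a sample's title and the only label like a batch. Its share was 62.1% ± 8.30 in the 6 daughters of prefix 10203 and 44.0% ± 5.05 in the 4 of prefix 10480 (SD). The ranges were 50.4% to 70.7% and 39.2% to 50.3%, so as labelled they did not overlap, by a narrow margin. Prefix 10203 holds daughters 2 and 6, and prefix 10480 holds daughter 9, whose column labels all go against the imprinted genes. The lack of overlap therefore depends on labels in doubt, and the share of all genes with separate ranges is not given here. The interaction was log2 -1.06 ± 0.26 (SE, unadjusted p = 0.00142), and it did not pass over all genes (adjusted p = 0.705 by edgeR). Prefix and parentage overlap without being the same. Daughters 4 and 5 share a father and carry prefix 10203, and daughters 7 and 8 share another and carry 10480. Daughter 1 has the father of daughters 7 and 8 but carries 10203, and its share was 61.3% on 31 reads. Maternal half-sisters 6 and 10 carry different prefixes and had 50.4% and 50.3%. Each such set holds few daughters, and the part of prefix and of parentage was not tested apart. LTBP3 (44.8% ± 7.69 against 63.7% ± 8.21, n = 3 and 3) and LAMC3 (26.5% ± 21.5 against 53.5% ± 22.9, n = 4 and 3) had an unadjusted p of 0.0249 and 0.0380 by edgeR (adjusted p = 1 for both). In all, 3 of 42 members did, against 3.56% of all genes, and 0 passed after adjustment, against 0.0335% of all genes.

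TNC encodes tenascin-C, a large glycoprotein that modulates cell adhesion. Its share was low in daughters 4 and 5, at 29.5% of 173 reads (23.2 to 36.7) and 26.8% of 425 (22.8 to 31.2). It was above 50% in daughters 3, 6, 7 and 8, at 59.5% of 309, 58.6% of 437, 69.6% of 56 and 58.6% of 174, each with an interval above 50%. Daughters 2, 9 and 10 had 36.8% of 19, 43.8% of 32 and 46.9% of 239, with intervals that include 50%. The SD between daughters was 14.8 points around a mean of 47.8% (n = 9), 2.51 times the counting SD. As labelled, daughters 4 and 5 had FN1 on the paternal side and TNC on the maternal side, and daughters 7 and 8 had the reverse. The labels of daughters 7 and 8 could not be checked on the imprinted genes, so the reversal between the 2 pairs rests on unchecked labels.

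**Figure D3:**
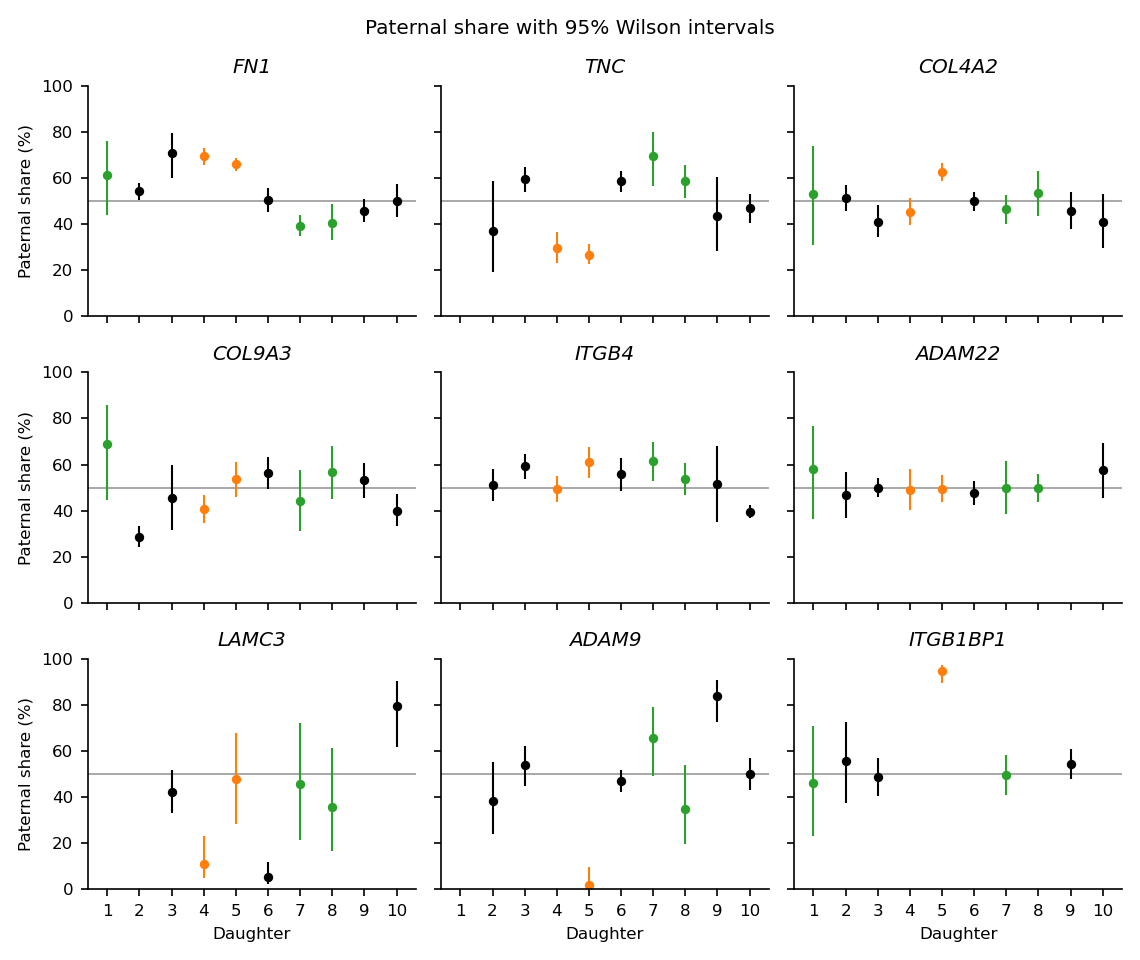
Paternal share (y axis, percent) in each daughter (x axis) for 9 genes, as points with 95% Wilson intervals. Daughters 4 and 5 (same father) are orange, 1, 7 and 8 (same father) green and the others black. FN1 and TNC lie on opposite sides in both sister pairs, ADAM22 stays between 46.7% and 57.9%, ITGB1BP1 has 1 daughter far from the rest, and ADAM9 and LAMC3 have daughters far from 50% on both sides. Sides are as labelled. The labels of daughters 2, 6 and 9 go against the imprinted genes, and those of daughters 1, 7 and 8 could not be checked.

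Half-sisters were therefore compared over all members. In the 5 pairs of daughters that share a parent, 8 gene measurements had both intervals off 50%, and in 7 of them both daughters lay on the same side. These were FN1, TNC and ITGA7 in daughters 4 and 5, FN1 and TNC in daughters 7 and 8, and COL15A1 and LAMA1 in daughters 6 and 10. The exception was LAMC3 in daughters 6 and 10. The column labels of daughter 6 go against the imprinted genes, so the sides of daughters 6 and 10 may not be comparable. In the 40 pairs with no shared parent it was 27 of 59. Over all genes, 47.4% of 502 such measurements in half-sisters were on the same side, and 50.5% of 3770 in other pairs. The half-sister pairs differed, with 124 of 230 in daughters 4 and 5, 46 of 65 in 7 and 8 and 56 of 175 in 6 and 10. Daughter 1 had 6 of 17 with daughter 7 and 6 of 15 with daughter 8. The 47.4% thus includes daughter 6, whose labels are in doubt, and daughters 1, 7 and 8, whose labels could not be checked. Counting every member measured in both half-sisters, regardless of interval, 47 lay on the same side and 47 on opposite sides. The 7 rest on 5 genes, and no test was made of them.

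Among the collagens, 22 of 24 could be measured and 16 were tested. Of 126 collagen measurements, 24 had an interval off 50%, or 19.0%, near the 20.1% of all genes, with 10 to the paternal and 14 to the maternal side. COL4A1 and COL4A2 encode the 2 chains of the main collagen IV of basement membranes and lie head to head around a shared promoter. COL4A1 was among the steadiest members, with a mean of 53.6% ± 4.42 (SD, n = 8) and a range of 49.5% to 61.2%. Only daughter 4 had an interval off 50%, with 61.2% of 121 reads (52.3 to 69.4). COL4A2, measured in all 10 daughters, had a mean of 49.03% ± 6.57 (SD). It lay on the paternal side in daughter 5, at 62.8% of 642 reads (59.0 to 66.4), and on the maternal side in daughter 3, at 41.1% of 192 (34.4 to 48.2).

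The chains did not keep to 1 side. In daughter 5 COL4A1 had 49.5% of 95 reads beside the 62.8% of COL4A2, and in daughter 4 it had 61.2% beside 45.4% of 262. Daughters 7 and 9 had 58.4% beside 46.4%, and 56.1% beside 45.9%. The intervals of the pair were apart in daughter 4 and overlapped at their ends in daughter 5 (39.6 to 59.4 for COL4A1). Over 5 pairs of neighbouring member genes with no other named protein-coding gene between them (COL4A1 and COL4A2, COL4A3 and COL4A4, COL4A5 and COL4A6, COL3A1 and COL5A2, COL6A1 and COL6A2), 7 of 23 joint measurements were on the same side, 14 on opposite sides and 2 had a gene at exactly 50%. Many of these shares had intervals that include 50%, so their side is uncertain. Neighbours were read from the gene table of another assembly, T2T-MFA8v1.1, and none of its coordinates is used.

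COL4A5 and COL4A6 are the X-linked collagen IV chains. In females 1 X chromosome is silenced in each cell, and a tissue can hold unequal numbers of cells using each. COL4A6 had the smallest p of all members in the parental comparison, at log2 -1.06 ± 0.42 (SE, unadjusted p = 0.0281, adjusted p = 1 by edgeR). It had low shares in daughters 2, 3 and 5, at 14.3% of 14 reads (4.01 to 39.9), 17.4% of 69 (10.2 to 28.0) and 18.5% of 27 (8.18 to 36.7). In daughter 6 it had 56.2% of 32, in daughter 8 50% of 10 and in daughter 10 31.2% of 16. The other X-linked genes with 20 or more reads had medians, in the same order of daughters 2, 3, 5, 6, 8 and 10, of 39.4%, 27.7%, 27.8%, 44.7%, 52.7% and 29.7%. The interval of COL4A6 held that median in each of these daughters, narrowly in daughters 2 and 3. COL4A5 was measured in daughters 2 and 7, with 43.8% of 112 reads and 50% of 36, where the X-linked medians were 39.4% and 57.1%.

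**Figure D4:**
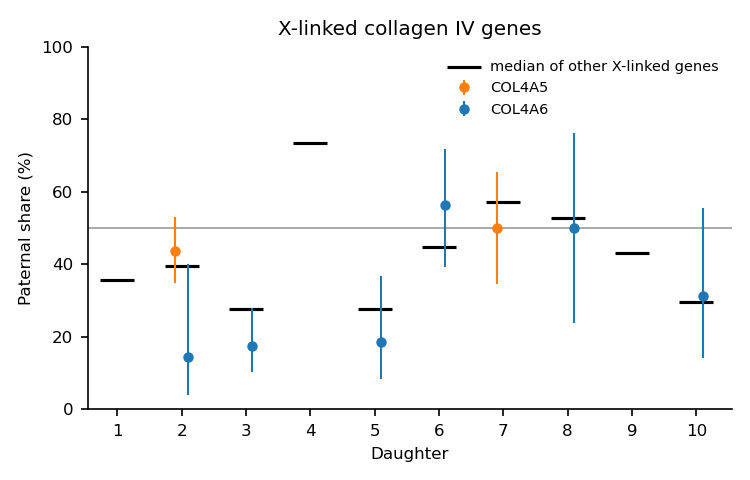
Paternal share (y axis, percent) of COL4A5 (orange) and COL4A6 (blue) in each daughter (x axis) with 95% Wilson intervals, beside the median of the other X-linked genes with 20 or more reads (black bars). COL4A6 lies low in daughters 2, 3 and 5, at 14.3%, 17.4% and 18.5%, and near 50% in daughters 6 and 8.

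COL9A3, a chain of collagen IX, which sits on the surface of collagen II fibrils, was measured in all 10 daughters. Its 3 measurements off 50% were all maternal, namely 28.6% of 374 reads for daughter 2 (24.3 to 33.4), 40.6% of 244 for daughter 4 and 40% of 180 for daughter 10. The other 7 daughters lay between 44% and 68.8%, the latter of 16 reads in daughter 1. The mean was 48.7% ± 11.3 (SD, n = 10). Among the fibrillar collagens, COL5A2 lay between 43.7% and 55.4% in 7 daughters. COL5A1 had a mean of 46.8% ± 11.99 (SD, n = 8), and in daughter 3 it lay at 37.1% of 105 reads. COL5A3 had 39.4% ± 9.81 (SD, n = 6), was below 50% in 5 of 6 daughters, and had an unadjusted p of 0.0662 (adjusted p = 1 by edgeR). COL1A1 and COL3A1, the main fibrillar collagens of connective tissue, were added with their values known. They had 44.2% to 53.7% in 3 daughters and 51.6% ± 13.4 (SD, n = 7).

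Several other collagens were wider in spread, on few reads. COL20A1 lay at 81.5% of 27 reads in daughter 2 (63.3 to 91.8), while daughter 10 had 29.3% of 41 (17.6 to 44.5). COL27A1, a fibrillar collagen of cartilage, lay at 62.9% of 70 reads in daughter 2, while daughter 6 had 15.8% of 19. COL15A1, a basement membrane collagen, lay on the paternal side in maternal half-sisters 6 and 10, at 66.7% of 57 and 73.1% of 26, with 30% to 39% in the remaining 3. COL17A1, a transmembrane collagen, had a mean of 43.6% ± 15.3 (SD, n = 6).

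All 4 laminin chains of the table were tested. LAMA1, an alpha chain of basement membrane laminin, lay on the paternal side in 3 daughters, namely daughters 4, 6 and 10, with 56.8% of 229 reads, 56.4% of 259 and 57.8% of 268. The intervals of daughters 4 and 6 start at 50.3. Its mean was 50.4% ± 7.05 (SD, n = 9). LAMA3 had 46.9% ± 15.1 (SD, n = 9), and its extremes were 76.2% of 21 reads for daughter 9 and 25.9% of 27 for daughter 10. LAMA5 had 57.7% ± 13.6 (SD, n = 5).

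LAMC3, a gamma chain, had the largest SD of the 42 members, at 24.8 points around a mean of 38.0% (n = 7). It was read almost wholly from the column labelled maternal in daughter 6, with 5.21% of 96 reads paternal (2.24 to 11.6), and mostly so in daughter 4, with 10.9% of 46 (4.73 to 23.0). In daughter 10 the reverse held, with 79.3% of 29 (61.6 to 90.2). The column labels of daughter 6 go against the imprinted genes, while those of daughters 4 and 10 go with them. Daughters 3, 5, 7 and 8 had 42.2% of 102, 47.6% of 21, 45.5% of 11 and 35.7% of 14, with intervals that include 50%. The mean of LAMC3 thus joins these daughters with daughters 4, 6 and 10, which lay far from 50%.

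Near-single-allele reading was rare. With 90% or more of 20 or more reads on 1 allele there were 3 of 267 member measurements, or 1.12%, against 1.60% of all. Apart from LAMC3 in daughter 6, both were in daughter 5. ADAM9, a membrane metalloprotease that sheds surface proteins, had 1.79% of 56 reads there (0.316 to 9.45), that is 1 paternal read. The same gene had 83.6% of 61 reads in daughter 9 (72.4 to 90.8), and 46.8% of 408, 50% of 196 and 53.7% of 123 in daughters 6, 10 and 3. The column labels of daughter 9 go against the imprinted genes, so its side may not be comparable with that of daughter 5. The SD of ADAM9, 24.0 points, was 3.54 times the counting SD, the highest ratio of the 42. ITGB1BP1 had 94.5% of 146 reads in daughter 5 (89.6 to 97.2) against 46.2% to 55.6% in the other 5 daughters. A position called as differing in error looks the same in such a table, and this was not tested. FBLN5, with 18 of 18 reads paternal in daughter 6 (82.4 to 100), had too few reads for that count and was singled out after its values were seen. It had 35.9% of 39 in daughter 2 and 38.5% of 13 in daughter 10.

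The fibulin, fibrillin and LTBP genes, which build microfibrils and hold TGF-beta in the matrix, had intervals off 50% in 9 of 31 measurements, or 29.0%, against 20.1% over all genes. FBLN1 was low in daughters 6, 7 and 3, at 40.4% of 267 reads (34.7 to 46.4), 27.7% of 47 and 16.7% of 12, and high in daughter 9, at 71.4% of 21. With most reads, in daughters 5 and 4, it had 47.2% of 494 and 54.1% of 333. LTBP1 had 73.3% of 120 reads in daughter 5 (64.8 to 80.4), while daughters 9 and 6 had 34.1% of 41 and 45.9% of 338. LTBP3 had 73.0% of 63 in daughter 8 (61.0 to 82.4) with the other 5 at 38.1% to 60.7%. FBN3, a fibrillin, had 64.8% ± 10.7 (SD, n = 3).

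Among 14 integrin subunits, 12 could be measured and 7 were tested. The alpha V subunit ITGAV, which binds fibronectin and vitronectin, was 1 of the steadiest members. The deepest measurements were 49.4% of 919 reads for daughter 4 (46.2 to 52.6) and 52.3% of 900 for daughter 5 (49.1 to 55.6), and the mean was 51.7% ± 4.18 (SD, n = 8). Its SD was 0.735 times the counting SD, so daughters did not spread beyond read counting. ITGB1, the beta subunit shared by most matrix-binding integrins, had 51.8% ± 9.27 (SD, n = 8), with only daughter 9 off 50%, at 56.6% of 408 (51.8 to 61.3). ITGA3, a laminin receptor subunit, had 53.4% ± 8.14 (SD, n = 7) with no interval off 50%.

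ITGB4 and ITGA7, the beta 4 and alpha 7 subunits of laminin receptors, did depart. ITGB4 lay on the paternal side in daughters 3, 5 and 7, at 59.2% of 311 reads, 61.2% of 201 and 61.7% of 120. In daughter 10 it lay on the maternal side, at 39.5% of 1129 (36.7 to 42.4). The other 5 daughters lay between 49.5% and 55.8%, all with intervals that include 50%. ITGA7 was low in daughters 4 and 5, at 27.3% of 66 (18.0 to 39.0) and 38.3% of 120 (30.1 to 47.3), and high in daughter 6, at 75% of 16 (50.5 to 89.8). These shifts sit on both sides, and neither gene had an unadjusted p under 0.05 (ITGB4 0.201, ITGA7 0.222; edgeR, adjusted p = 1 for both).

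In the protease families intervals left out 50% in 4 of 39 ADAM measurements, 2 of 21 of ADAMTS, 2 of 11 of ADAMTS-like and 1 of 15 of MMP genes. These are 10.3%, 9.52%, 18.2% and 6.67%, against 20.1% over all genes at all depths. By depth, all genes had 11.6% at 10 to under 20 reads, 16% at 20 to under 50 and 21.8% at 50 to under 200. The median was 64 reads in the ADAM measurements, which falls in the last of these classes. It was 21 in the ADAMTS, 25 in the ADAMTS-like and 23 in the MMP measurements. ADAM22, a catalytically inactive ADAM that acts as a receptor for LGI1 at synapses, had the smallest SD of the 42 members, at 4.08 points around 50.9% (n = 9). The most reads were those of daughters 3, 6 and 5, with 50% of 538 (45.8 to 54.2), 47.6% of 336 and 49.5% of 285. No daughter had an interval off 50%. ADAM23, also inactive as a protease and neuronal, had 49.5% to 53.0% in daughters 3, 4, 5, 9 and 10, and 41.4% of 527 in daughter 6 (37.2 to 45.6). Daughters 8 and 1 had 57.7% of 78 and 28.6% of 14, with intervals that include 50%. ADAM17, the sheddase of TNF, had 77.9% of 68 in daughter 4 (66.7 to 86.2) and 41.2% to 52.4% in the other 4.

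ADAMTS and MMP genes had few reads. As labelled, ADAMTS10 lay above 50% in 8 of 8 daughters, with 58.8% ± 6.955 (SD) and 15 to 35 reads in each, and no interval left out 50%. Labels were in doubt for daughters 6 and 9 and unchecked for 7 and 8, and no share of all genes is set beside ADAMTS10. Its difference was log2 0.45 ± 0.21 (SE, unadjusted p = 0.0510, adjusted p = 1 by edgeR). MMP15, a membrane-type MMP, had 59.3% ± 6.89 (SD, n = 5), above 50% in 4 of 5 daughters and at 50% of 10 reads in daughter 3, with an unadjusted p of 0.0512 (adjusted p = 1 by edgeR). MMP16 had 58.7%, 53.8% and 67.4% in 3 daughters, MMP17 46.9% ± 11.96 (SD, n = 5), and MMP24 50% and 46.2% in 2. ADAMTS1, which cuts proteoglycans, had 43.4% ± 7.22 (SD, n = 5), ADAMTS13, the von Willebrand factor protease, 50% and 51.4%, and ADAMTS17 61.5% and 27.8%. Of the ADAMTS-like proteins, which lack the protease domain, ADAMTSL2 had 53.1% ± 7.59 (SD, n = 5) and ADAMTSL3 58.4% ± 18.1 (SD, n = 4). ADAMTSL1 and ADAMTSL5 were measured once each, at 30% of 10 reads and 70.6% of 17.

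The spread between daughters was set beside that of the whole table. Over the 42 members measured in 5 or more daughters the median SD was 11.9 points, against 9.53 over 2981 genes. The median SD from read counting was also larger, at 9.18 against 7.32 points. The ratio of the SDs had a median of 1.40 in members and 1.30 in all genes, and exceeded 1.5 in 17 members (40.5%) and 37.2% of all genes. The larger SD of the members thus went with fewer reads. Its part in the difference was not tested.

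**Figure D5:**
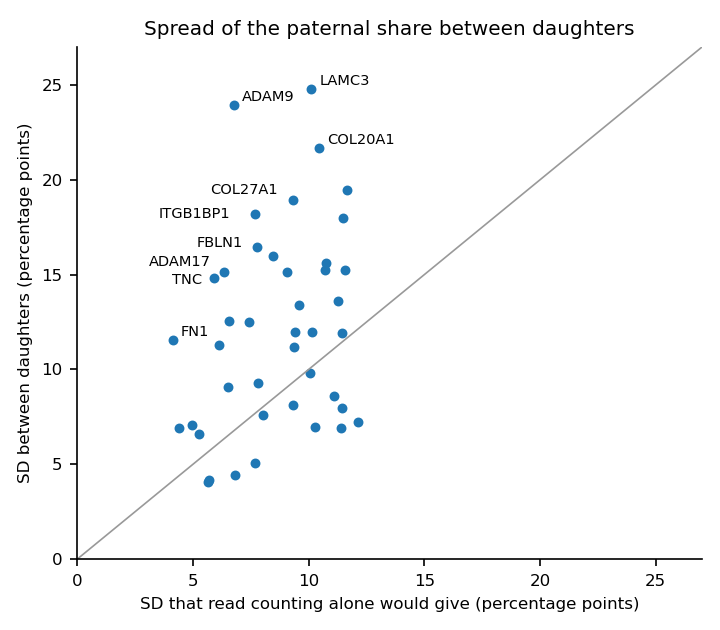
SD of the paternal share between daughters (y axis, percentage points) against the SD that counting the same reads at equal alleles would give (x axis) for the 42 genes measured in 5 or more daughters, with the line of equality. Genes with over 2 times the counting SD are named. ADAM9 and LAMC3 lie highest, at 24.0 and 24.8 points, and FN1 lies far left, with a counting SD of 4.13 points.

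Other genes of matrix assembly and adhesion gave no call either. Of 98 such genes (proteoglycans, collagen-modifying enzymes, adhesion scaffold proteins and others), 51 were in the table, 40 could be measured and 15 were tested. By edgeR 0 passed after adjustment and 1 of 15 had an unadjusted p under 0.05 (3.12% of all genes), the protease inhibitor gene SERPINE2, named with its values known, at 54.7% ± 2.94 (SD, n = 7). An interval left out 50% in 28 of 167 measurements, or 16.8%, against 20.1% over all genes. The median SD over the 15 tested genes was 6.36 points, against 9.53 over all genes. No counting SD was set beside it, so the part of read depth in this difference was not tested.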

How the data were processed

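Total RNA of the dorsal raphe nucleus was depleted of ribosomal RNA and sequenced as stranded paired-end libraries, per the labels' protocols, which also name a chromatin step that has no bearing here. Novoalign is named without a version in the submitters' processing notes. The authors deposited whole-number counts per gene, split by parental allele, on a build named macFas5 in the column headers. The phasing, the use of strand in counting and the read filters are not given in the sources used here.

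All 20 columns were matched to samples by title. The 2981 genes that reached 10 allelic reads in at least 5 daughters were fitted with edgeR 4.0.16 (R 4.3.3, glmQLFit with robust prior, glmQLFTest, daughter as block, library size summed over both alleles), and p-values were adjusted over all of them by Benjamini-Hochberg at 0.05. DESeq2 1.42.0 was the other tool. The SE is the fold change divided by the root of its F. The edgeR fit was tested on simulated data. Genes without a value were set to 0 in both columns of that daughter. Shares, Wilson intervals at 95% and SDs came from Python 3.11.15 with SciPy 1.17.1. The counting SD is that of binomial draws at equal alleles with the same reads. Depth runs from 30090 to 999471 allelic reads per daughter, so daughter 1 is the least precise.

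The table T2T-MFA8v1.1 matched 84 of 86 member symbols and gave chromosome and neighbours only. Members and lists were chosen with earlier results of these data known. Named genes are up to 4 per family with most measured daughters, up to 6 per direction with the smallest p, genes past a threshold, those at 90% or more on 1 allele with 20 or more reads, X-linked genes, and the 5 largest and 5 smallest SDs. Alternatives were TMM and RLE scaling, DESeq2, other read minimums, exact intervals, no block, leaving out each daughter, each title prefix alone, and pooled reads.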

Additional observations from a re-analysis of the deposited data

Results flagged for a closer look

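The share of 1 daughter stood apart from the others by Dixon's criterion in 2 of 47 genes with 4 to 10 measured daughters. Chance flags about 1 in 20 such groups, and 2 of 47 is near that rate. ITGB1BP1 was 94.5% paternal in daughter 5, over 146 reads, against 46.2% to 55.6% in the other 5. COL27A1 was 15.8% paternal in daughter 6, over 19 reads, against 50% to 62.9% in the other 4.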

How the results depend on the processing

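The count of 0 members past the threshold in the parental comparison held under every alternative run: TMM, RLE, DESeq2, no read filter, 20 reads, no replicate block, each title prefix alone, each daughter left out (0 to 0) and, chosen after seeing the data, without daughters 2, 6 and 9, whose imprinted genes go against the column labels. The value without the block was 0. Members tested were 42 with TMM, RLE, DESeq2 and no block, 83 with no read filter and 29 at 20 reads. They were only 17 and 24 with prefix 10203 and 10480 alone, and 24 without daughters 2, 6 and 9. With each daughter left out they were 35 to 42. The prefix interaction stayed at 0 with DESeq2 and with the other filter. The 77 measurements off 50% became 45 of 149 at a read minimum of 50 (30.2%) and 51 of 235 without daughters 2, 6 and 9 (21.7%), both with fewer measurements by construction, and 65 to 76 with each daughter left out. The median SD ranged from 10.9 to 12.4 points with each daughter left out and was 9.67 over 29 genes at 20 reads. Mean shares moved by under 1 SD except that of ADAMTSL3, 80% in the 1 daughter with 20 reads. With pooled reads 35 of 42 named genes kept their side of 50%. The largest move was that of LAMC3, by 7.95 points. Depth limits most members: 212 of 361 measurements rest on under 50 reads.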
